A study of Homo sapiens with 6 samples.

Results

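The cytosolic ribosomal protein genes were examined in HEK-293T, a line of human embryonic kidney origin that grows as transformed cells, after exposure to nitidine chloride, a benzophenanthridine alkaloid. Members were the genes with an RPL or RPS symbol of the core form (a number, with A, X, L, L1 or AL as the only suffixes), together with RPLP0, RPLP1, RPLP2 and RPSA, that averaged at least 10 counts over the 6 libraries. Of 50868 genes in the deposited table, 85 matched by symbol and 83 reached that count, 51 of the large subunit and 32 of the small subunit. The other two, RPL10L and RPL3L, averaged fewer than 10 counts and were not tested. The rule used symbols and mean counts, not the difference between the groups. FAU and RACK1, which encode ribosomal proteins under other names, fell outside the rule and are described separately.

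The study compared messenger RNA of cells kept for 12 h in medium containing the solvent DMSO with that of cells kept for 12 h with 10 µM nitidine chloride (NC), with 3 libraries in each group. All libraries came from HEK-293T cells of wild-type genotype, per the labels, so the cell line and genotype were shared by both groups. The labels do not say whether the 3 libraries of a group came from separate cultures, so p-values measure only the spread between these samples, which may be technical. Because the measurements are of bulk RNA, fewer cells of a kind and less RNA per cell cannot be told apart.

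Each cytosolic ribosome contains a single copy of nearly every ribosomal protein, and the genes are transcribed at high rates in dividing cells so that the proteins accumulate together. Vertebrate ribosomal protein mRNAs characteristically begin with a C followed by an unbroken run of pyrimidines, the 5′ terminal oligopyrimidine (TOP) tract, through which mTORC1 and LARP1 control their translation and stability. These genes have also left many processed pseudogenes in the human genome, retrotransposed copies of the mRNA whose sequence can be close to that of the parent.

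The start windows of 12 members are shown because the results below turn on these genes and because they differ in the TOP tract. Each window runs from 10 bases before the RefSeq start to 20 bases from it (GRCh38.p14), and capitals mark a C followed by at least 4 further pyrimidines (C or T), read on the gene's own strand, that begins within 5 bases of that start.
RPL22L1 (chr3:170870176-170870205, minus strand): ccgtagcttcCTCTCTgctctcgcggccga
RPL22 (chr1:6199576-6199605, minus strand): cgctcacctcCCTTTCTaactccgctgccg
RPL3 (chr22:39319604-39319633, minus strand): gccgaccggCCTCTaccggcgggatttgat
RPL36AL (chr14:49620607-49620636, minus strand): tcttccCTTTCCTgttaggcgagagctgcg
RPL36A (chrX:101391001-101391030, plus strand): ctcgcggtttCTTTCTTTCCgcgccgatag
RPSA (chr3:39406710-39406739, plus strand): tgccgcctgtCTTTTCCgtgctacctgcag
RPL28 (chr19:55385922-55385951, plus strand): cctcgccttcCTCTTTCCgtctcaggtcgc
RPLP0 (chr12:120201092-120201121, minus strand): ggcgcgaggcCCTTCTCTCgccaggcgtcc
RPL41 (chr12:56116623-56116652, plus strand): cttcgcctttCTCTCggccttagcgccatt
RPS27 (chr1:153990752-153990781, plus strand): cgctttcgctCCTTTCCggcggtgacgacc
RPL15 (chr3:23916535-23916564, plus strand): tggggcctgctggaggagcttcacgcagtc
RPS4X (chrX:72277229-72277258, minus strand): ctccagccccaatttctacgcgcaccggaa
Of the 83 members, 67 were matched in the RefSeq start table. The tract began exactly at the annotated start in 43 of them (64.2%), against 4.04% of all 27305 starts in that table. With the 5-base allowance it was found in 52 of 67 (77.6%), against 21.1% of all starts. No tract was found in the windows of RPL15 and RPS4X, nor in those of the paralogues RPL7L1, RPL26L1 and RPS27L. These letter matches describe the annotated windows only, and the starts used in these cells were not measured.

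The 6 libraries held between 12688093 and 16357992 counts. All 5 HEK-293 markers were detected, with a summed level of 577 to 594 CPM (counts per 1000000 counts) in the DMSO libraries and 474 to 479 CPM in the NC libraries. The leukocyte list summed to 0.986 to 2.22 CPM with CD3E at 0, and hepatocyte and endothelial lists reached at most 0.381 and 0.695 CPM in any library. The 3 fibroblast genes summed to 32.3 to 36.6 CPM with DMSO and 53.0 to 59.7 CPM with NC, and their part in the results was not tested. Mitochondrially encoded genes took 3.805 to 3.94% of the counts with DMSO and 3.39 to 3.46% with NC.

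The libraries within each group differed on the members themselves. After scaling by the trimmed mean of M values (TMM), DMSO replicate 2 was the lowest DMSO library for 62 of 83 members and NC replicate 3 was the lowest NC library for 61 of 83. DMSO replicate 1 was the highest DMSO library for 55 of 83 and NC replicate 2 the highest NC library for 50 of 83. The members' median deviation from the mean log2 CPM of their own group was -0.12 in NC replicate 3, 0.12 in NC replicate 2 and -0.08 in DMSO replicate 2, whereas the median over all tested genes lay between -0.01 and 0.02 in each library. FPKM is fragments per kilobase of gene and 1000000 fragments. The 758 tested genes with an FPKM gene length under 1000 bases had medians of 0.04, -0.04 and 0.0049 in DMSO replicates 1 to 3. In NC replicates 1 to 3 their medians were 0.08, 0.02 and -0.08. The members' medians were 0.07, -0.08 and 0.01 with DMSO and 0.03, 0.12 and -0.12 with NC. The 13806 genes of 2000 bases or more had 0.0029 in NC replicate 3. The FPKM gene length is the one implied by counts and FPKM, so these classes do not sort members by mRNA length. For RPL3 it is 9700 bases, where the mRNA has 1442 bases and the gene spans 7.508 kb. Most members, RPL3 among them, lie outside the class under 1000 bases. That class also includes pseudogene rows of members, such as RPL3P4 at 423 bases. The deviation of NC replicate 3 was largest for the shortest proteins. It had a median of -0.40 for the 11 members with a coding length under 300 bases, of which 10 were lowest in that library, -0.15 for the 49 members of 300 to under 600 bases, and -0.07 for the 23 longer ones. Across the 83 members, the difference between NC replicate 3 and the other NC libraries had a Spearman correlation with coding length of 0.40, a description over genes that share the same libraries. The part that these libraries play in the results was not tested beyond leaving each out in turn.

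**Figure D1:**
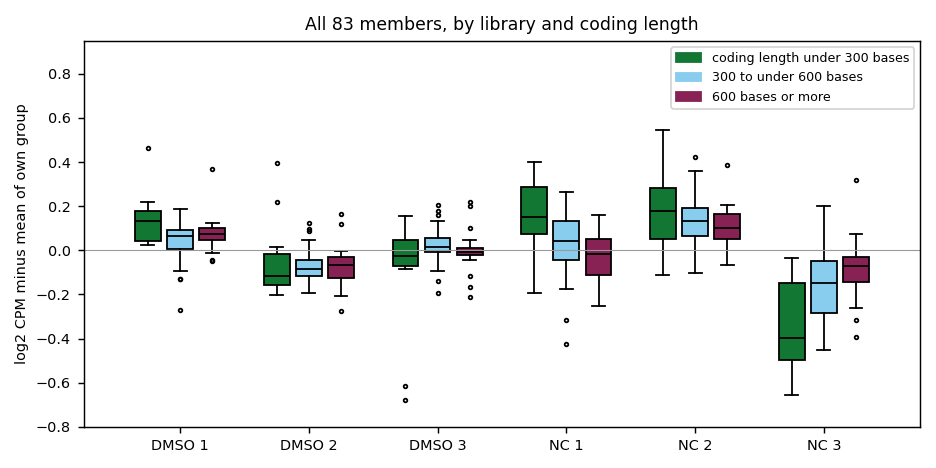
Log2 CPM of each of the 83 members minus the mean of its own group (y axis) in each of the 6 libraries (x axis), with members split by coding length. Boxes span the quartiles with the median as a line, whiskers reach 1.5 interquartile ranges and points lie beyond them. The shortest members lie lowest in NC replicate 3, with a median of -0.40.

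Few ribosomal protein genes changed with nitidine chloride. Of the 83 members, 10 rose and 4 fell (were called higher or lower) at an adjusted p under 0.05 (quasi-likelihood test of edgeR, adjusted over all tested genes by the Benjamini-Hochberg method), or 16.9%. In the same test 51.7% of the 15953 tested genes passed, 24.7% upward and 27.0% downward. The members' median log2 fold change was 0.06 with quartiles at -0.01 and 0.19, against a median of 0.01 and quartiles at -0.46 and 0.37 over all tested genes. The differences of 65 members were smaller than 0.25 on the log2 scale. Their median standard error was 0.11, against 0.12 over all tested genes. An unadjusted p under 0.05 was reached by 21 members.

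Abundance and gene size gave other reference points. Among the 2382 tested genes with a mean of at least 100 CPM, 57.8% passed the test. Their median standard error was 0.073, below the 0.106 of the members. Among the 6758 tested genes spanning under 20 kb, 44.6% passed and the median log2 fold change was 0.22, whereas the 70 members of that size had a median of 0.06 with 12 called. The 13 members spanning 20 kb or more had a median of 0.11 with 2 called. Within the set, 8 large subunit members rose and 3 fell, and 2 small subunit members rose and 1 fell. The medians were 0.10 for the large and 0.05 for the small subunit. The groups did not overlap, with all NC libraries above or all below the DMSO libraries, for 23 of 83 members, 18 above and 5 below. Over all tested genes this held for 60.7%, with 29.7% above and 31.0% below.

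**Figure D2:**
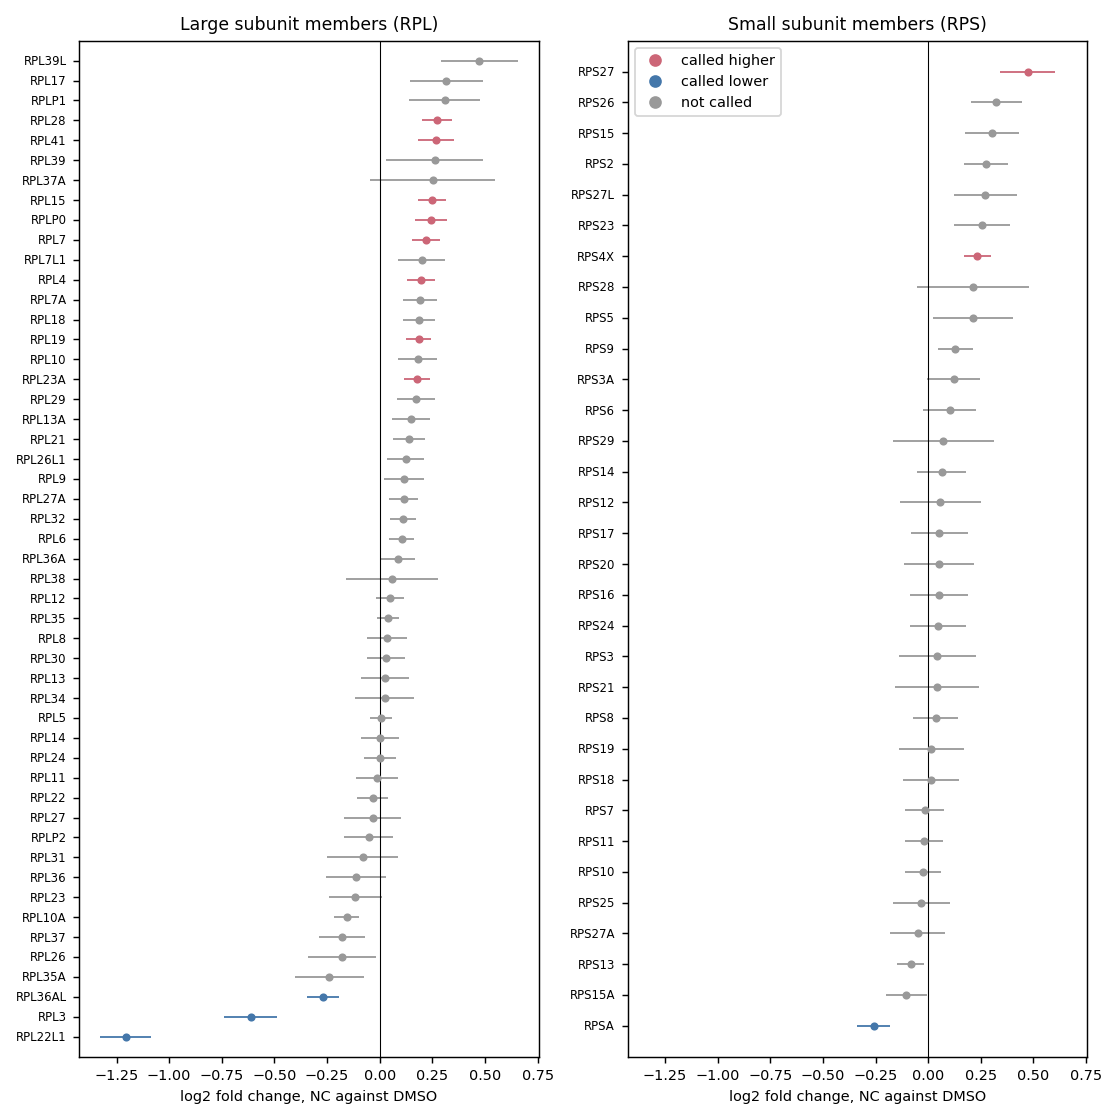
Log2 fold change of NC against DMSO (x axis) with its standard error as a bar, 1 line per member, for 50 of the 51 large and all 32 small subunit members. Red points were called higher, blue points lower and grey points were not called; RPL22L1 at -1.21 and RPL3 at -0.61 lie apart from the rest.

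The number of calls depended on single libraries. Without DMSO replicate 2, 0 members were called higher and 4 lower, where 20.4% and 24.1% of all tested genes were. Without DMSO replicate 3 the counts were 2 and 2, against 20.3% and 24.0% of all tested genes. Without NC replicate 2, 6 were higher and 5 lower, against 22.8% and 26.3% of all tested genes. Without NC replicate 3, 18 were higher and 2 lower, against 22.8% and 25.6% of all tested genes. With library totals in place of TMM factors, 28 members were higher, 18 of them not called with TMM factors, and 2 lower. Over all tested genes 32.2% and 23.4% were. Log2 fold changes moved up, for example from -0.03 to 0.07 for RPL22 and from -0.27 to -0.16 for RPL36AL. The TMM factors differed by group, at 0.961, 0.967 and 0.965 with DMSO and 1.047, 1.015 and 1.050 with NC. Small differences of members, and their sign, therefore depend on the scaling.

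RPL22L1 showed the largest decrease. Its protein is the paralogue of RPL22, a large subunit protein that is not essential for protein synthesis. RPL22L1 (ENSG00000163584, positions 170864875 to 170870483 of chromosome 3, minus strand) measured 113, 105 and 109 CPM in DMSO replicates 1 to 3 and 55.3, 47.8 and 38.9 CPM in NC replicates 1 to 3. The groups did not overlap, and the NC libraries all lay far below the DMSO libraries. The mean went from 109 ± 3.999 to 47.3 ± 8.20 CPM (SD, n = 3 each), a log2 fold change of -1.21 ± 0.12 (SE) or 2.31-fold lower, with an adjusted p of 1.19e-04 by edgeR's quasi-likelihood test. No pseudogene row was assigned to it and no counted gene overlapped it. The decrease passed under all 14 alternatives that test against no change at the same threshold, with adjusted p between 1.16e-17 and 0.00106, and it was the only member whose change exceeded 1.5-fold in a test against that fold.

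RPL3 fell next. It is a core large subunit protein that reaches toward the peptidyl transferase centre and is among the first to join the assembling particle. RPL3 (positions 39312882 to 39320389 of chromosome 22) measured 2181, 1750.3 and 2166 CPM with DMSO and 1475, 1399 and 1112 CPM with NC. All NC libraries lay below all DMSO libraries, and the lowest value of each group came from the library that was low for most members, DMSO replicate 2 and NC replicate 3. The log2 fold change was -0.61 ± 0.13 (1.53-fold lower, adjusted p = 0.00465). It passed under the same 14 alternatives, with adjusted p from 2.05e-05 to 0.0185, and did not pass in the test against a 1.5-fold change. Both genes carry the tract shown above, RPL22L1 at the annotated start and RPL3 at 1 base before it.

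RPL36AL and RPSA fell by less. RPL36AL, a paralogue of RPL36A, measured 76.5, 75.7 and 82.8 CPM with DMSO and 70.2, 64.0 and 61.1 CPM with NC, so that the groups did not overlap. Its log2 fold change was -0.27 ± 0.08 (adjusted p = 0.0198), which became 0.0814 without DMSO replicate 3 and 0.0640 without NC replicate 3. With library totals in place of TMM factors RPL36AL was at -0.16 ± 0.08 (adjusted p = 0.111). RPSA, the small subunit protein also known as the laminin receptor precursor, measured 885, 773 and 832 CPM with DMSO and 684, 752 and 645 CPM with NC. The groups did not overlap, although DMSO replicate 2 and NC replicate 2 differed by little. The log2 fold change was -0.26 ± 0.08 (adjusted p = 0.0255). Its adjusted p rose to 0.0909 without DMSO replicate 1, 0.0696 without DMSO replicate 3, 0.0650 without NC replicate 1 and 0.0724 without NC replicate 3. With library totals RPSA was at -0.16 ± 0.07 (adjusted p = 0.0916), and with its symbol-named pseudogene counts added at -0.22 ± 0.08 (adjusted p = 0.0611). RPL10A was the only other member with all NC libraries below the DMSO libraries, at 909, 857 and 844 CPM against 799, 802 and 742 CPM, and it was not called (-0.16 ± 0.06, adjusted p = 0.0592) except without NC replicate 2 (-0.17 ± 0.06, adjusted p = 0.0450).

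The 10 members that rose changed by 1.13-fold to 1.39-fold. RPS27, a small subunit zinc-finger protein, had the largest increase among them. It measured 18.3, 16.1 and 19.8 CPM with DMSO and 27.5, 26.4 and 21.4 CPM with NC, with no overlap. Its log2 fold change was 0.47 ± 0.13 (adjusted p = 0.0170). This row holds few of the counts of its family, as described with the pseudogenes below, and its difference with those rows added was 0.18 ± 0.19 (adjusted p = 0.456).

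RPL28, which is found in eukaryotic and not in bacterial ribosomes, measured 345, 327 and 345 CPM with DMSO and 415, 438 and 375 CPM with NC. The groups did not overlap, and the log2 fold change was 0.27 ± 0.07 (adjusted p = 0.0134). Its call was lost only without DMSO replicate 2 among these 14 alternatives, where the adjusted p was 0.0568. UBE2S, on the other strand, overlaps the span of RPL28 and averaged 3249 counts. The strand setting of the counting is not given in the sources used here, so reads of such a pair cannot be told apart. The same limit holds for other members that rose. Counted genes on the other strand overlap RPL7 (RDH10, 886.7 counts), RPL4 (ZWILCH, 774.3), RPS4X (PIN4, 450.5), RPL23A (TLCD1, 271.3) and RPL15 (NKIRAS1, 152.3).

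RPL41, which encodes the smallest ribosomal protein, measured 265, 222 and 259.9 CPM with DMSO and 318, 303 and 277 CPM with NC (log2 fold change 0.27 ± 0.09, adjusted p = 0.0353). RPL15, a large subunit core protein, measured 678, 648 and 658 CPM with DMSO and 722, 811 and 827 CPM with NC (0.25 ± 0.07, adjusted p = 0.0150). Neither pair of groups overlapped. RPS4X, the X-linked form of small subunit protein S4, measured 2564, 2490.1 and 2518 CPM with DMSO and 2811, 3228 and 2865 CPM with NC (0.23 ± 0.06, adjusted p = 0.0177). It was among the highest members by the authors' FPKM, at 577 ± 6.49 with DMSO and 729.5 ± 42.0 with NC (SD, n = 3 each). The gene length implied by its FPKM was 4209 bases against an mRNA of 1526 bases, so this is not a level per mRNA length.

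The remaining increases were close to the threshold. RPL7, a large subunit protein that binds 28S rRNA, measured 232, 209.6 and 218 CPM with DMSO and 249, 250.4 and 268 CPM with NC (log2 fold change 0.22 ± 0.06, adjusted p = 0.0227). RPL4, which lines the peptide exit tunnel, measured 1520.3, 1533 and 1552 CPM with DMSO and 1727, 1913 and 1639 CPM with NC (0.20 ± 0.07, adjusted p = 0.0389). RPL19, which contributes to a bridge between the subunits, measured 951, 878 and 907 CPM with DMSO and 1038, 1088 and 984 CPM with NC (0.18 ± 0.06, adjusted p = 0.0357). In each of these 3 genes the groups did not overlap. RPL23A, which sits at the exit of the tunnel, measured 144, 145 and 131 CPM with DMSO and 158 CPM in every NC library (0.18 ± 0.06, adjusted p = 0.0439), and its call was lost under 11 of 14 alternatives.

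Leaving out a library removed many of these small increases. Without DMSO replicate 2 all 10 lost their call, with adjusted p from 0.0568 to 0.137. Without DMSO replicate 3 all but RPL28 and RPS27 did, from 0.0577 to 0.174. Without NC replicate 1, RPL4, RPL19, RPL23A, RPL41, RPLP0 and RPS27 lost it, from 0.0543 to 0.0984. Without NC replicate 2, RPL19, RPL23A, RPL41 and RPLP0 did, from 0.0552 to 0.0730. Without DMSO replicate 1, RPL4, RPL19 and RPL23A did, from 0.0531 to 0.114. Without NC replicate 3, RPL7 and RPL23A did, at 0.0651 to 0.0856, and 10 members not called otherwise passed, among them RPLP1 and RPL39L.

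**Figure D3:**
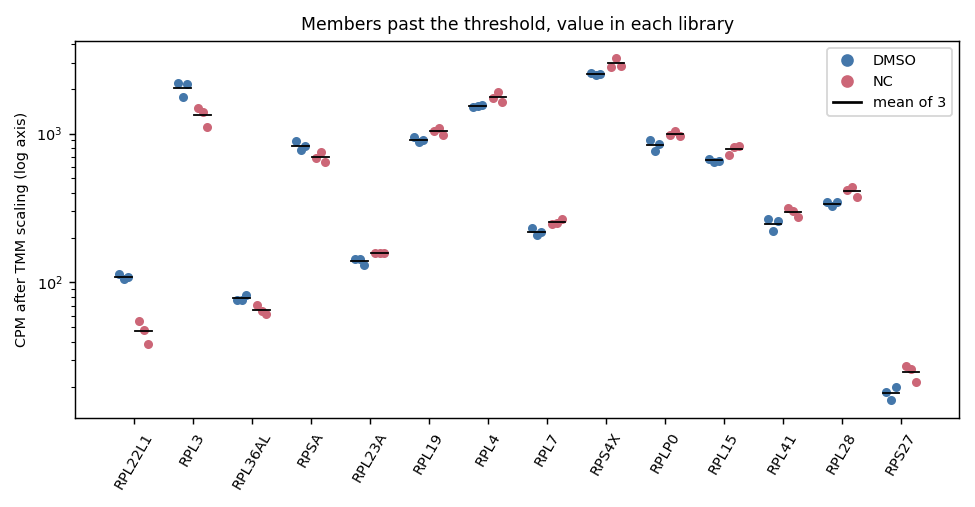
CPM after TMM scaling (y axis, log scale) in each of the 3 DMSO and 3 NC libraries for the 14 members past the threshold, with a black line at the mean of each group. In each of the 14 the NC points lie wholly below or wholly above the DMSO points, and the distance is widest for RPL22L1.

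The proteins of the P stalk, which recruits translation factors to the ribosome, were called in 1 of 3 cases, where 51.7% of all tested genes were called. RPLP0, its base, rose from 910.3, 759 and 849 CPM to 980.4, 1041 and 960.0 CPM (log2 fold change 0.24 ± 0.08, adjusted p = 0.0308). RPLP1 measured 699.9, 678 and 725 CPM with DMSO and 879, 1088 and 638 CPM with NC, where NC replicate 3 lay below all DMSO libraries (0.31 ± 0.17, adjusted p = 0.163). Without that library RPLP1 passed, at 0.49 ± 0.10 with an adjusted p of 0.00580. RPLP2 measured 547, 492 and 549 CPM with DMSO and 533, 579 and 421 CPM with NC (-0.05 ± 0.12, adjusted p = 0.739), again with NC replicate 3 lowest, and 0.07 without it.

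RPL5 and RPL11 join 5S rRNA in the particle that binds MDM2 when ribosome assembly is disturbed. RPL5 measured 1500.2, 1430.0 and 1454 CPM with DMSO and 1456, 1521 and 1426 CPM with NC. Its log2 fold change of 0.01 ± 0.05 (adjusted p = 0.929) had the smallest standard error of all members. RPL11 measured 628, 651 and 793 CPM with DMSO and 705, 637 and 713 CPM with NC (-0.01 ± 0.10, adjusted p = 0.925). RPS6, the substrate of the S6 kinases, measured 958, 759 and 1069 CPM with DMSO and 1090, 979.96 and 923 CPM with NC (0.10 ± 0.13, adjusted p = 0.524). In all 3 genes the groups overlapped. The sign of the difference changed without DMSO replicate 2 or 3 or NC replicate 2 for RPL5 (lowest value -0.02), without DMSO replicate 3 or NC replicate 2 for RPL11 (0.10 and 0.04) and without DMSO replicate 2 for RPS6 (-0.02).

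Members without a call included some with larger fitted differences. RPS26, a small subunit protein near the mRNA exit, measured 22.6, 17.6 and 20.6 CPM with DMSO and 24.4, 27.9 and 23.8 CPM with NC (log2 fold change 0.32 ± 0.12, adjusted p = 0.0534). It passed under 5 of 14 alternatives, for example without DMSO replicate 1 at 0.40 ± 0.13 (adjusted p = 0.0391). Pseudogene rows held 88.7% of its family's counts. With the symbol-named rows added RPS26 was at 0.20 ± 0.06 (adjusted p = 0.0237), and with all of them at 0.16 ± 0.08 (adjusted p = 0.123). RPL37A measured 597 and 504 CPM in DMSO replicates 1 and 2 but 271 CPM in DMSO replicate 3, and 642, 601 and 388 CPM with NC. This gave it the largest standard error of all members (0.25 ± 0.30, adjusted p = 0.510).

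The 6 members with a paralogue suffix are genes that can stand in for a parent protein in the ribosome or resemble it, and the log2 ratio of paralogue to parent counts was followed in each library. RPL22L1 over RPL22 went from -0.72, -0.97 and -1.02 with DMSO to -1.91, -2.02 and -2.36 with NC, so that the groups were far apart. The mean ratio differed by -1.19, and the exact two-sided permutation test gave p = 0.1, the smallest that 3 against 3 libraries allow (0.3 adjusted over the 6 pairs). RPL22 itself measured 187, 207 and 222 CPM with DMSO and 208, 194 and 199.7 CPM with NC (log2 fold change -0.03 ± 0.08, adjusted p = 0.731), with overlapping groups and a value of 0.02 without DMSO replicate 3. Of the counts of the RPL22 family, 41.8% lay on pseudogene rows. With those counts added, the log2 fold change of RPL22 was -0.08 ± 0.08 (adjusted p = 0.382).

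RPL36AL over RPL36A was the other pair without overlap. Its log2 ratio was 0.40, 0.28 and 0.33 with DMSO and 0.11, 0.04 and -0.22 with NC, a difference of -0.36 (exact permutation p = 0.1, 0.3 adjusted over the pairs). RPL36A measured 58.2, 62.5 and 65.7 CPM with DMSO and 64.9, 62.3 and 71.0 CPM with NC (log2 fold change 0.09 ± 0.08, adjusted p = 0.389). Most counts of the RPL36A family lay on a pseudogene row, so this ratio is uncertain.

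In the other 4 ratios the groups overlapped. RPL26L1 over RPL26 differed by 0.34 (exact permutation p = 0.2), and NC replicate 1 alone stood out because RPL26 measured 438 CPM there against 642 to 706 CPM in the other libraries. The log2 fold change of RPL26 was -0.18 ± 0.16 (adjusted p = 0.381) and 0.0041 without that library. RPL26L1 measured 68.5, 56.0 and 58.2 CPM with DMSO and 66.4, 67.2 and 65.5 CPM with NC (log2 fold change 0.12 ± 0.09, adjusted p = 0.269). RPL39L, a paralogue known from the male germ line, measured 10.4, 10.4 and 10.0 CPM with DMSO and 14.5, 17.7 and 10.6 CPM with NC (0.47 ± 0.18, adjusted p = 0.0623). It passed without NC replicate 3, at 0.65 ± 0.13 with an adjusted p of 0.00635.

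RPL39 measured 63.0, 59.3 and 62.6 CPM with DMSO and 67.9, 103 and 50.3 CPM with NC, a wide spread with NC (log2 fold change 0.26 ± 0.23, adjusted p = 0.374, and -0.06 without NC replicate 2), and the ratio of RPL39L to RPL39 differed by 0.24 (exact permutation p = 0.2). RPS27L, a paralogue known as a p53 target, measured 18.2, 15.005 and 15.7 CPM with DMSO and 23.9, 18.0 and 17.1 CPM with NC (0.27 ± 0.15, adjusted p = 0.170). RPS27L over RPS27 differed by -0.21 (exact permutation p = 0.3). RPL7L1, which takes part in the assembly of the subunits, measured 352, 324 and 417 CPM with DMSO and 377, 467 and 411 CPM with NC (0.20 ± 0.11, adjusted p = 0.179), and its ratio to RPL7 differed by -0.02 (exact permutation p = 0.6). Pseudogene rows held 95.3% of the RPS27 family's counts and 86.7% of the RPL7 family's, so the ratios to RPS27 and RPL7 are uncertain.

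**Figure D4:**
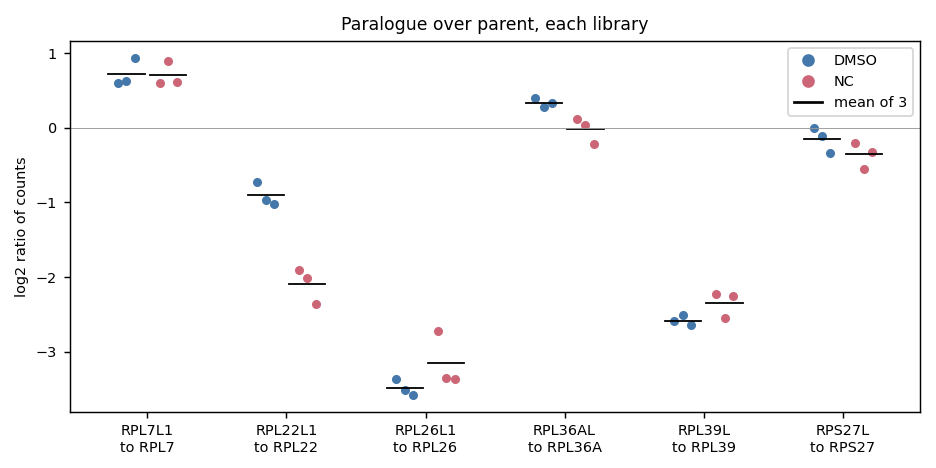
Log2 ratio of paralogue to parent counts (y axis) in each library for the 6 pairs with both genes tested, with a line at the mean of each group of 3. RPL22L1 to RPL22 is near -0.91 with DMSO and -2.10 with NC; the other pairs differ by 0.36 or less in size.

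The table counts pseudogenes as rows of their own, and for several members these rows held most of the family's counts. The table had 1178 rows whose symbol is a member's with P and a number, of which 109 averaged at least 10 counts, and 892 further rows with a clone name and a description as a pseudogene of a member, of which 65 did. In 19 of 83 members, over 50% of the family's counts lay on such rows, and in 29 members under 1% did. Single pseudogene rows exceeded the parent's own row in 15 cases among the rows with a symbol and in 7 among the clone-named rows. RPS2P5 on chromosome 12 measured 2851, 2587 and 2725 CPM with DMSO and 2928, 3606 and 2891 CPM with NC. RPS2, its parent, was lower, with a mean of 985 CPM with DMSO and 1193 CPM with NC (15608 counts on average). RPS28 averaged 62.3 counts with 98.2% of its family on other rows, RPL21 averaged 478 with 95.2%, RPS27 averaged 312 with 95.3% and RPL36A averaged 921 with 92.7%. The levels of such members are uncertain, because the counting could split reads between near-identical copies.

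**Figure D5:**
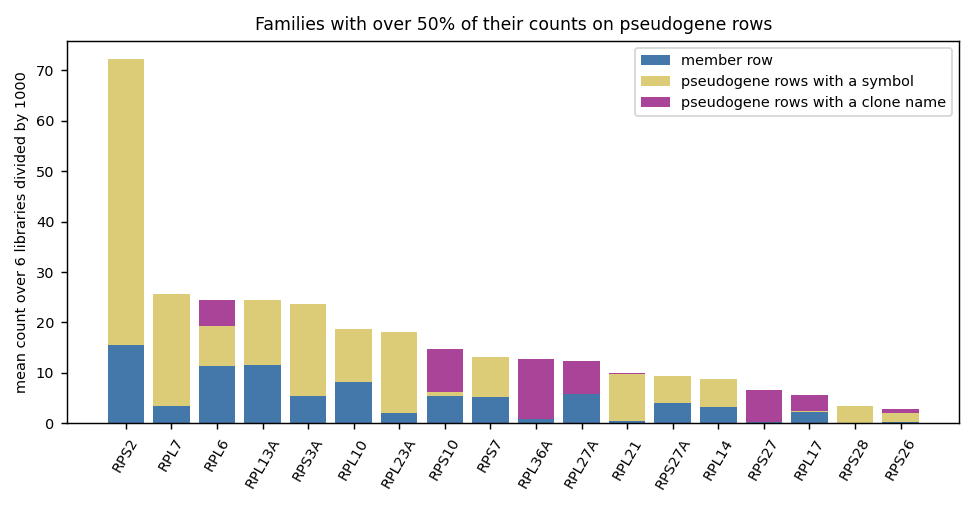
Mean count over the 6 libraries (y axis, divided by 1000) on the member row and on its pseudogene rows for 18 of the 19 families with over 50% of their counts on pseudogenes. In the RPS2 family the member row holds 15608 counts on average, and the rows with a clone name carry most of the RPL36A and RPS27 families.

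How alike the copies are is shown by 3 stretches of 60 coding bases from GENCODE 29 transcripts, with capitals marking the bases that differ between member and pseudogene. The first pair is from RPL36A and the clone-named row AC116533.1 (coding positions 1 to 60 of RPL36A), the second from RPL3 and RPL3P4 (826 to 885) and the third from RPS26 and RPS26P19 (59 to 118).
RPL36A: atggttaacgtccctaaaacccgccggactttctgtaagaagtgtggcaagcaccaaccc
AC116533.1: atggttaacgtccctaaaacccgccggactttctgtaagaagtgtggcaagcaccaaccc
RPL3: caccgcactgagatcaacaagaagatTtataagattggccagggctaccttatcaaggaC
RPL3P4: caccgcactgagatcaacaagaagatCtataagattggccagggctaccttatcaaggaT
RPS26: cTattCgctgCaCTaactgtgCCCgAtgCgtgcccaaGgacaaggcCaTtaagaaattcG
RPS26P19: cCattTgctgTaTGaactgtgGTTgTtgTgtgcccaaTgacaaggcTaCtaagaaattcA
The stretches hold 0, 2 and 14 mismatches. Over the whole rows, AC116533.1 was identical to the RPL36A mRNA, so no read within it can be placed by sequence. RPL3P4 was 99.5% identical to RPL3 and 77.8% of its 50-base words also occur in RPL3. RPS26P19 was 79.5% identical to RPS26 and shared no 50-base word with it.

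Among the 109 tested pseudogene rows with a symbol, 12 were called higher and 3 lower, against 51.7% of all tested genes called in either direction. Their median log2 fold change was 0.09. Of the 65 clone-named rows, 1 was called, AC069499.1, at -0.99 ± 0.25 (adjusted p = 0.0111). The median absolute distance between the log2 fold changes of row and parent was 0.10 over the 109 rows, and 93 of them lay within 0.3. That distance was 0.09 for the 30 rows sharing over 50% of their 50-base words with the parent and 0.14 for the 28 rows sharing under 10%. The parent and the row share libraries and may share reads.

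RPL3P4 fell with its parent. It measured 238, 208 and 231 CPM with DMSO and 176, 164 and 111 CPM with NC (log2 fold change -0.58 ± 0.16, adjusted p = 0.0178), and without DMSO replicate 1 the adjusted p was 0.0502. With the pseudogene rows added to RPL3 the decrease of the family was -0.61 ± 0.13 (adjusted p = 0.00518). RPL10AP6 (-0.37 ± 0.11, adjusted p = 0.0274) and RPL14P3 (-0.56 ± 0.19, adjusted p = 0.0436) also fell, while their parents RPL10A and RPL14 were not called. RPL14P3 was the weakest of these, at 30, 32 and 33 counts with DMSO and 24, 25 and 19 counts with NC, and its call was lost under each of 11 alternatives, every omitted library included, with adjusted p from 0.0511 to 0.217. That of RPL10AP6 was lost without DMSO replicate 1 (0.0529), DMSO replicate 3 (0.0951), NC replicate 1 (0.0627) or NC replicate 3 (0.0783).

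Among the pseudogene rows called higher, RPL23AP82 and RPS26P19 had the lowest adjusted p. RPL23AP82 (positions 50756948 to 50801309 of chromosome 22), a transcribed unprocessed pseudogene per the annotation, measured 19.97, 19.4 and 18.0 CPM with DMSO and 34.3, 39.5 and 36.4 CPM with NC. The groups were well apart (log2 fold change 0.94 ± 0.09, adjusted p = 9.93e-05), against 0.18 for RPL23A, and 0.102% of its 50-base words occur in the parent. RPS26P19, with the stretch shown above, measured 16.8, 16.6 and 15.04 CPM with DMSO and 26.8, 26.7 and 27.0 CPM with NC (0.73 ± 0.09, adjusted p = 2.87e-04). Both calls held under all 12 alternatives that apply to pseudogene rows.

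Of the 5 largest increases among these rows, the other 3 were less stable when libraries were left out. RPS4XP16 had 4, 9 and 5 counts with DMSO and 27, 11 and 23 with NC (log2 fold change 1.68 ± 0.49, adjusted p = 0.0219). Its adjusted p was 0.0625 without DMSO replicate 1, 0.0744 without DMSO replicate 3, 0.0705 without NC replicate 1 and 0.0587 without NC replicate 3. RPL7P22 had 66, 83 and 110 counts with DMSO and 111, 128 and 185 with NC (0.66 ± 0.23, adjusted p = 0.0441), and the adjusted p without single libraries rose to 0.118 (DMSO replicate 1), 0.107 (DMSO replicate 2), 0.0561 (DMSO replicate 3) and 0.0905 (NC replicate 3). RPS3AP21 measured 11.0, 11.3 and 10.0 CPM with DMSO and 13.9, 13.96 and 19.6 CPM with NC (0.55 ± 0.16, adjusted p = 0.0198), and 0.0680 without DMSO replicate 3.

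Adding the counts of all pseudogene rows to their members before the test left 10 members called, against 52.3% of all tested genes, with 9 of them among the 14 called on their own rows. RPL15, RPL23A, RPL7, RPS27 and RPSA lost their call. The pseudogene rows with a symbol held 26.3, 26.5 and 26.4% of the family counts in the DMSO libraries and 26.9, 27.2 and 27.5% in the NC libraries. The NC libraries were all higher, by a mean of 0.822 percentage points (exact permutation p = 0.1, the smallest possible).

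As a whole, the 83 members took 4.51, 4.13 and 4.37% of all counts with DMSO and 4.91, 5.15 and 4.47% with NC. The groups overlapped, since NC replicate 3 lay below DMSO replicate 1. The mean shares were 4.34 ± 0.194% and 4.84 ± 0.342% (SD, n = 3 each, exact permutation p = 0.2). With the symbol-named pseudogene rows added, the shares were 6.12, 5.62 and 5.94% with DMSO and 6.72, 7.07 and 6.17% with NC, and these groups did not overlap (exact permutation p = 0.1, the smallest possible). With the clone-named rows added as well, they were 6.53, 5.98 and 6.32% and 7.19, 7.51 and 6.54%, also without overlap (exact permutation p = 0.1). After TMM scaling, the members' CPM summed to 45054 ± 2168 with DMSO and 46815 ± 4057 with NC (exact permutation p = 0.7).

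The authors' FPKM with DMSO ran from 0.988 for RPS28 to 662 for RPS12, with a median of 69.3. The gene length implied by counts and FPKM was 12.1 times the coding length at the median and ranged from 2.35 to 67.7 times, and the low rows include those whose family counts lie on pseudogenes.

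Members with and without the tract both held called genes. Of the 52 members with a tract within 5 bases, 6 rose and 4 fell, with a median log2 fold change of 0.05, where 24.7% and 27.0% of all tested genes rose and fell. Of the 15 matched members without one, 2 rose and 0 fell, with a median of 0.18. The 4 members that fell all carried a tract, as did 77.6% of the matched members.

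FAU and RACK1, ribosomal proteins named outside the symbol rule, were tested in the same fit and were not called. FAU, a ubiquitin-like fusion to a small subunit protein, measured 211, 176 and 184 CPM with DMSO and 200.2, 235 and 183 CPM with NC (0.11 ± 0.11, adjusted p = 0.416). RACK1, a signalling scaffold on the small subunit, measured 897, 723 and 728 CPM with DMSO and 781, 876 and 770.1 CPM with NC (0.05 ± 0.10, adjusted p = 0.710). The groups of FAU and RACK1 overlapped, and the difference of RACK1 was at or below 0 without DMSO replicate 2 or 3 or NC replicate 2 (lowest value -0.01).

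Genes that act with the ribosome were followed as 5 lists. Of 26 other mRNAs known to carry a TOP tract, 7 rose and 9 fell, against 51.7% called over all tested genes, with a median log2 fold change of 0.03. EIF3H, a subunit of initiation factor eIF3, fell from 193 ± 8.55 to 91.0 ± 6.08 CPM (SD, n = 3 each; log2 fold change -1.09 ± 0.07, adjusted p = 1.29e-05). HNRNPA1, an RNA-binding splicing factor, fell by 0.92 ± 0.13 (adjusted p = 8.12e-04). EEF1A1, which delivers aminoacyl-tRNA to the ribosome, rose from 1690 ± 73.9 to 2536 ± 481 CPM (0.59 ± 0.13, adjusted p = 0.00675), and EEF1B2, a subunit of its exchange factor, rose by 0.39 ± 0.06 (adjusted p = 0.00110).

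Of the 12 chaperones and nuclear carriers of ribosomal proteins, 5 rose and 2 fell (58.3%, against 51.7% of all tested genes). Their median log2 fold change was 0.17. PDCD2, a chaperone of RPS2, rose from 78.0 ± 0.111 to 115 ± 10.9 CPM (log2 fold change 0.55 ± 0.08, adjusted p = 6.69e-04), and its relative PDCD2L rose by 0.51 ± 0.08 (adjusted p = 0.00134). RPS2 itself was not called (0.28 ± 0.10, adjusted p = 0.0592). The import receptors TNPO1 (-0.50 ± 0.08, adjusted p = 0.00100) and IPO7 (-0.46 ± 0.06, adjusted p = 5.85e-04) fell.

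Of 13 regulators of TOP mRNA translation and of the S6 protein, 3 rose and 6 fell (69.2%, against 51.7% of all tested genes). Their median log2 fold change was -0.12. LARP4B, an RNA-binding protein related to LARP1, fell by 1.13 ± 0.11 on the log2 scale (adjusted p = 1.19e-04), and the S6-directed kinase gene RPS6KA3 fell by 1.06 ± 0.07 (adjusted p = 1.27e-05). LARP1 itself was called lower at -0.57. CNBP, which binds TOP mRNAs, rose by 0.47 ± 0.08 (adjusted p = 0.00224), and EIF4EBP1, the mTORC1 target that sequesters eIF4E, rose by 0.44 ± 0.07 (adjusted p = 0.00161).

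Among the 10 genes of ribosome surveillance and recycling, 4 rose and 4 fell (80%, against 51.7% of all tested genes). Their median log2 fold change was -0.02. ASCC3, a helicase that splits collided ribosomes, went from 137 ± 4.91 to 23.5 ± 1.63 CPM (log2 fold change -2.54 ± 0.08, adjusted p = 6.01e-07). HBS1L, a GTPase of ribosome rescue, fell by 0.91 ± 0.07 (adjusted p = 4.06e-05). ZNF598, the ubiquitin ligase that marks collided ribosomes, rose by 0.59 ± 0.10 (adjusted p = 0.00213), and SBDS, which helps release eIF6 from the large subunit, rose by 0.62 ± 0.06 (adjusted p = 1.20e-04).

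Of the 6 promoter factors known at ribosomal protein genes, 1 rose and 2 fell (50%, against 51.7% of all tested genes). Their median log2 fold change was -0.20. HCFC1, a transcriptional co-regulator, rose by 0.36 ± 0.06 (adjusted p = 0.00208). The factor YY1 fell by 0.41 ± 0.06 (adjusted p = 6.64e-04). GABPA, an ETS-family factor, fell by 0.44 ± 0.12 (adjusted p = 0.0160), and without DMSO replicate 2 its adjusted p was 0.0572. The genes named from these lists ranged in span from 3.34 kb (EEF1B2) to 373 kb (ASCC3), and 70 of the 83 members span under 20 kb.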

How the data were processed

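The 6 HEK-293T mRNA libraries were analysed from 1 deposited table of counts and FPKM. Raw counts per gene were deposited by the authors, per the file headers, and FPKM (fragments per kilobase of gene and 1000000 fragments) stands beside them as the authors' normalized value, also per the file headers. Per the submitters' processing notes, HISAT2 2.0.4 and StringTie 1.3.0 were used, in roles that the notes do not state. The counter, strand setting, build and annotation were not given in the sources used here. Positions of genes equalled those of GENCODE 29 for 47523 of 50111 shared gene IDs.

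Groups were taken from the labels. Counts of all genes with a mean of at least 10 (15953 genes) were fitted with edgeR 4.0.16 in R 4.3.3 (quasi-likelihood test, TMM factors, no covariate, all 6 libraries), with Benjamini-Hochberg adjustment over all of them and a threshold of 0.05. CPM are TMM-scaled counts per 1000000 counts, and log2 fold changes are NC minus DMSO with standard errors. Values per library were compared by exact two-sided permutation tests, for which 3 against 3 libraries cannot go below p = 0.1. FPKM was used only for levels per FPKM gene length and for that length itself. Depth was 12688093 to 16357992 counts per library, and counting error is small for most members. The test was checked on simulated data with known changes of 1.5-fold or more in a small part of the genes. That setting covers neither the smaller increases of the members nor data in which 51.7% of genes pass.

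Alternatives were the replicate block, leaving out each library, DESeq2 1.42.0, limma-voom (limma 3.58.1), library totals without TMM, other count minimums, a 1.5-fold test, a threshold of 0.01, leaving out the 40 members overlapped by another counted gene, and adding pseudogene counts to members. The alternatives with clone-named pseudogenes were chosen after seeing the data.

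Members, gene lists and the paralogue pairs were chosen with earlier results of these data known. All members could be named, with per-library values for those called, the paralogue pairs, the 3 members at either end of the order by fold change, the P stalk, RPL5, RPL11, RPS6, FAU and RACK1. The results of some genes are not reported here. The values of RPL37A, RPL10A, RPS2, LARP1, RPS2P5, AC116533.1 and AC069499.1 were chosen after they were seen. From each pathway list up to 2 called genes per direction and from the pseudogene rows up to 5 per direction, by fold change, were named. Start windows came from RefSeq (GRCh38.p14) and coding stretches from GENCODE 29, aligned with Biopython 1.88.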

Additional observations from a re-analysis of the deposited data

How the results depend on the processing

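The count of members called higher was 10. It was 0 to 18 over the fits that left out 1 library, 28 with library totals alone, 4 among the 43 members not overlapped by another counted gene, 0 in the test against 1.5-fold (4.7% of all tested genes) and 0 at a threshold of 0.01 (16.4%). The count called lower was 4, with 2 to 5 over the fits that left out 1 library, 2 with library totals, 1 against 1.5-fold (13.1% of all tested genes) and 2 at a threshold of 0.01 (21.2%). Among the same 43 members without overlap, 4 fell. The test with all 6 libraries and TMM factors called 24.7% of all tested genes higher and 27.0% lower. Pseudogene rows called higher numbered 12, with 4 to 14 when 1 library was left out, 27 with library totals, 1 against 1.5-fold and 2 at 0.01. Those called lower numbered 3, with 0 to 5 when 1 library was left out, 1 with library totals, 0 against 1.5-fold and 0 at 0.01. Over all tested genes, 20.3 to 23.0% were called higher and 24.0 to 26.3% lower when 1 library was left out. With library totals these shares were 32.2% and 23.4%. DESeq2 called 14 members, 13 of them shared (48.6% of all tested genes called), and limma-voom called 15 (51.7%). With the replicate number as a block, 5 members were higher and 2 lower (21.9% and 25.5% of all tested genes), and 6 pseudogene rows were higher and 1 lower. The numbers did not pair the libraries: deviations of same-numbered libraries correlated at 0.0014, -0.05 and 0.04, and the highest correlation (0.09) was between DMSO replicate 1 and NC replicate 2. The sign of uncalled log2 fold changes varied with the library left out for RPL11 (-0.079 to 0.095), RPL22 (-0.098 to 0.022), RPL26 (-0.288 to 0.0041), RPL39 (-0.058 to 0.475), RPL5 (-0.018 to 0.029), RPLP2 (-0.148 to 0.073), RPS6 (-0.025 to 0.213) and RACK1 (-0.010 to 0.155). With library totals it turned for RPL11 (0.093), RPL22 (0.071) and RPLP2 (0.052), at a mean count of 50 for RPL11 (0.0017), and with all pseudogene counts added for RPL36A (-0.040). The cause of these changes was not tested. RPL22L1 and RPL3 were called lower under the 14 alternatives that test against no change at the threshold of 0.05 and at 0.01, and RPL3 was not called in the test against 1.5-fold.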
